A study of Homo sapiens with 4 samples.

Results

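The 10 transcription factor genes examined here, BCL6, BACH2, MEF2C, PAX5, EBF1, IKZF1, SPI1, SPIB, IRF8 and POU2AF1, set B-cell and germinal center (GC) identity. They were taken by symbol from the 25066 genes of the deposited RNA-seq table, and all 10 were found. The cells were NUDUL1, a human diffuse large B cell lymphoma line of the GC type in which doxycycline-inducible Cas9, carried by a line grown from a single cell, had been used with 1 sgRNA per genotype. The 2 libraries labelled control and the 2 labelled GNA13-deficient came from cells of both genotypes that also carried the transduced receptor Tbxa2r and had all received U46619, a stable thromboxane A2 analog, at 10 nM for 24 h. No untreated cells were included, so each comparison is between genotypes under U46619. GNA13 encodes Gα13, a G protein subunit through which the thromboxane receptor can signal. The comparison asked how the expression of these regulators differed between the genotypes.

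In GC B cells, BCL6 and BACH2 repress genes for cell cycle arrest, activation and plasma cell differentiation, and MEF2C acts with them in B-cell proliferation and GC formation. PAX5 and EBF1 commit cells to the B lineage and hold them there, with the zinc finger protein IKZF1 (Ikaros) acting from earlier stages on. SPI1 (PU.1) and SPIB are closely related ETS factors that can pair with IRF8 or IRF4 on composite DNA elements, and POU2AF1 (OCA-B) is the coactivator that octamer-binding proteins need in B cells.

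The libraries held between 29209544 and 31537955 mapped reads. Deposited values below 400 normalized reads were all whole numbers of reads, within 0.02 reads plus the rounding of the log2 values, and larger read numbers given below are rounded from the same steps. Between 7946 and 9309 genes were listed at 0 in a library, and in control replicate 2 the lowest value above 0 was that of 2 reads, so genes with 0 and with 1 read cannot be told apart there. GNA13 mRNA was 12.46 and 12.45 (log2 normalized reads) in the control-labelled libraries and 13.10 and 13.11 in the GNA13-deficient-labelled ones. It was thus higher in the latter, by 0.65 (SE 0.05, adjusted p = 0.00214 by limma). The label names a genotype made with a GNA13-targeting sgRNA and not a level of mRNA. A GNA13 pseudogene of similar sequence could affect the measured level, and its part in the reads was not tested. The level of GNA13 mRNA therefore does not check the labels, and the genotype of a library, with the direction of every difference below, is taken from its label. B-cell markers matched the labelled cell type, with summed normalized reads of 170000 to 188000 in the control-labelled libraries and 166000 to 181000 in the GNA13-deficient-labelled ones. Of 12 GC B-cell markers, 11 were tested, 5 were lower, none was higher and SERPINA9 was listed at 0 throughout. The 5, named here after their values were seen, differed by -3.7 (LMO2), -2.78 (RGS13), -2.19 (STAP1), -1.24 (NEIL1) and -1.05 (ELL3) on the log2 scale. RGS13 had only 12 and 13 reads against 3 and 1. The summed level of the list was 29400 to 30800 against 29100 to 30200 normalized reads. Most of that sum was MME, also named after its values were seen and not called, with 16961 and 16664 reads against 16404 and 15156. The sum therefore says little about the 5. The 8 plasma cell markers summed to 98000 to 109000 against 104000 to 119000 normalized reads, with 3 lower and 0 higher. The 3 were PRDM1 and IRF4, given below, and TNFRSF17 (-0.59 on the log2 scale), named after its values were seen. Most of that sum was IGJ, also named after its values were seen and not called, with 66955 and 80151 reads against 76108 and 86454. Sums for markers of lineages other than B cells were far lower and differed between the labels. They were 147 to 196 against 6.45 to 21.5 normalized reads for 8 T-cell markers, with CD3D, CD3E, CD2 and TRAT1 listed at 0 in every library. For 8 myeloid markers they were 228 to 242 against 26.9 to 30.8, with FCGR3A at 0, and for 8 epithelial, endothelial or stromal markers 161 to 162 against 117 to 132, with KRT8, KRT19 and DCN at 0. Few genes carried these sums, and they are named after their values were seen. CD4, which myeloid cells also express, had 115 and 175 of the T-cell marker reads against 12 and 5. Of the myeloid marker reads, ITGAM had 125 and 145 against 3 and 4, and LYZ had 83 and 83 against 11 and 17. In the last list EPCAM was higher by 1.23 and PECAM1 differed by -3.03 on the log2 scale, so its members moved in opposite directions. Large falls also outnumbered large rises over the genome. Among 11372 genes with a mean of at least 5 (log2), 296 were lower by more than 2 log2 units and 18 were higher by more than 2. The part of these features in the results below was not tested. In bulk RNA, fewer cells that express a gene and less RNA of it per cell cannot be told apart.

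Of the 10 factors, 7 passed the test between genotypes, 6 lower and 1 higher in the libraries labelled GNA13-deficient (limma, adjusted p under 0.05 over 16945 genes tested). Over all genes tested, 29.7% passed, 16.6% lower and 13.1% higher. BCL6 fell most, to 17.9% of its control level, and 5 others (MEF2C, BACH2, IRF8, SPI1 and POU2AF1) fell by a like amount, to between 65.2% and 67.6%. IKZF1 rose 1.5-fold, and PAX5, EBF1 and SPIB did not pass. The groups did not overlap for 9 of the 10 factors, as was the case for 65.3% of all genes tested. The median difference of the 10 was -0.56 on the log2 scale, against -0.02 for all genes tested. The 2 libraries of a label may be technical repeats, since no source used here states that they came from separate cultures, and p-values then measure only the spread between these libraries.

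**Figure D1:**
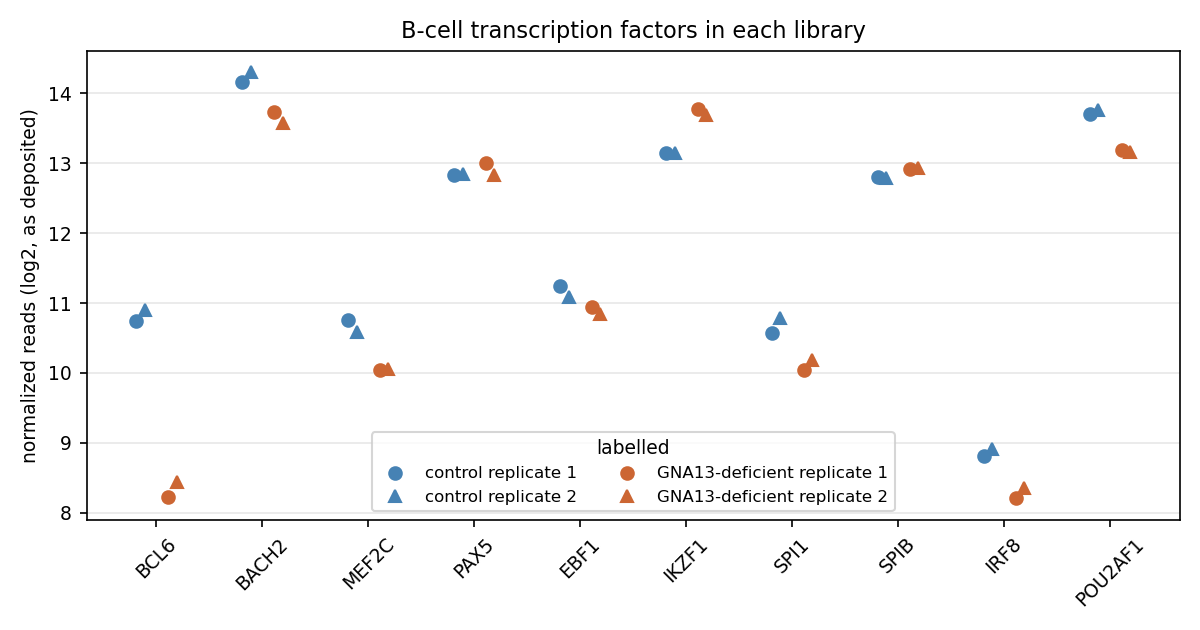
Normalized reads (vertical axis, log2 as deposited) of the 10 transcription factors in the 2 libraries labelled control (blue) and the 2 labelled GNA13-deficient (orange), with circles for replicate 1 and triangles for replicate 2. BCL6 has the widest gap between the groups, IKZF1 lies higher in the libraries labelled GNA13-deficient, and only for PAX5 do the groups overlap.

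BCL6, a zinc finger repressor and the factor that defines the GC state, lies at chr3:187439165-187463513 on the minus strand of hg19. It stood at 10.75 and 10.90 (log2 normalized reads) in the control-labelled libraries and at 8.23 and 8.44 in the GNA13-deficient-labelled ones. Both GNA13-deficient values were far below both control values, with a gap of 2.31 log2 units between the nearest libraries and at most 0.21 between replicates. GNA13-deficient minus control, the log2 difference was -2.49 (SE 0.10, 95% interval -2.75 to -2.22, adjusted p = 0.00085 by limma), a 5.6-fold lower level. These levels rest on 1692 and 1935 reads against 293 and 323 reads, and counting error at the lowest was 5.84%. Among the 8473 genes at or above the median mean level, BCL6 had rank 36 by size of fall, and among all 16945 genes tested, many of them with few reads, it had rank 646.

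RefSeq gives BCL6 2 separate start sites among its promoter windows (GRCh38.p14), and the region before the first is shown because BCL6 fell most and is known to bind its own gene. The 250 bases before the first start (chr3:187745469-187745718, minus strand of GRCh38.p14, written 5′ to 3′) held none of the 9 motifs searched, so no letter is in capitals.
BCL6 upstream: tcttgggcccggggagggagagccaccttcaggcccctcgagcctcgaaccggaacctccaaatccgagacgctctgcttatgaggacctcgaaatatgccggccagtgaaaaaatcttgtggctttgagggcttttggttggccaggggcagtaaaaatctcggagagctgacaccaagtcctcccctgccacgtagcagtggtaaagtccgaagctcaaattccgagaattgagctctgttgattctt
The motif TTCCTNGAA, a form of the sequence that BCL6 binds, was searched on both strands and was found in 1.56% of 35116 RefSeq windows that run from 250 bases before to 50 bases after a start. Among the 18 windows of the factors that have an entry, it occurred once, in BCL6 itself, on the opposite strand and starting 37 bases into the transcript. The capitals mark that match (chr3:187745419-187745442, minus strand, GRCh38.p14).
BCL6 element: tgcaagaagtTTCTAGGAAaggcc
A match of letters is a description of the sequence and not evidence of binding in these cells.

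BACH2, a leucine zipper repressor that holds back plasma cell differentiation, lies at chr6:90636247-91006562 on the minus strand of hg19. Its log2 values were 14.17 and 14.30 in the control-labelled libraries and 13.74 and 13.57 in the GNA13-deficient-labelled ones. All control values were above all GNA13-deficient values, although BACH2 remained among the most abundant of the 10 by reads, with 11320 in its lowest library. This gave a log2 difference of -0.58 (SE 0.09, 95% interval -0.81 to -0.35, adjusted p = 0.0109 by limma). With no filter on low values the adjusted p was 0.0956, and with no variance trend it was 0.0596.

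MEF2C, a MADS box activator that is needed for proliferation after antigen receptor signals, lies at chr5:88012934-88200074 on the minus strand of hg19. It measured 10.76 and 10.58 (log2 normalized reads) in the control-labelled libraries and 10.05 and 10.06 in the GNA13-deficient-labelled ones. The groups were apart by 0.52, while the control libraries differed by 0.18. The log2 difference was -0.62 (SE 0.08, 95% interval -0.82 to -0.41, adjusted p = 0.00649 by limma). Without a filter on low values the adjusted p was 0.066.

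Within each library, BCL6 lost ground to BACH2. The log2 ratio of BCL6 to BACH2 was -3.41 and -3.41 in the control-labelled libraries and -5.50 and -5.13 in the GNA13-deficient-labelled ones, a 3.75-fold shift. Scaling a library by a single factor leaves such a ratio unchanged. Quantile normalization does not, and it gave differences of -2.42 for BCL6 and -0.78 for BACH2. The groups did not overlap, and the exact two-sided permutation p was 0.333, the smallest that 2 against 2 libraries allow.

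PAX5, the paired-box factor that maintains B-cell identity, lies at chr9:36833266-37034265 on the minus strand of hg19. It measured 12.83 and 12.85 (log2 normalized reads) in the control-labelled libraries and 13.01 and 12.83 in the GNA13-deficient-labelled ones. The GNA13-deficient values lay on both sides of the control values, so the groups overlapped. GNA13-deficient minus control, the log2 difference was 0.08 (SE 0.08, 95% interval -0.12 to 0.28, adjusted p = 0.503 by limma). It was -0.04 after quantile normalization and -0.01 without GNA13-deficient replicate 1, and after centring each library on its median it was 0.28 with an adjusted p of 0.0394.

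EBF1, which opens B-lineage genes together with PAX5, lies at chr5:158122928-158526924 on the minus strand of hg19. Its log2 values were 11.24 and 11.09 in the control-labelled libraries and 10.95 and 10.84 in the GNA13-deficient-labelled ones. The control values were the higher ones, but the gap of 0.14 was about as wide as the 0.15 between the control replicates. The log2 difference of -0.27 (SE 0.08, 95% interval -0.47 to -0.07) missed the threshold with an adjusted p of 0.06 by limma. It passed where only genes above the median level were tested (adjusted p = 0.0203) and after quantile normalization (0.0385). It also passed with voom weights on whole reads (0.042) and with same-numbered replicates as a block (0.00961). Median centring took the difference to -0.06 (adjusted p = 0.547), and without the variance trend the adjusted p was 0.183.

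IKZF1, a zinc finger regulator active from lymphoid progenitors onward, was the only factor of the 10 called higher as the values were deposited. It lies at chr7:50343664-50472799 on the plus strand of hg19. The libraries labelled control had log2 values of 13.15 and 13.15, and those labelled GNA13-deficient had 13.78 and 13.69. Both GNA13-deficient values were higher by more than 0.5, while replicates differed by at most 0.08. This gave a log2 difference of 0.58 (SE 0.06, 95% interval 0.43 to 0.74, adjusted p = 0.00385 by limma).

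The log2 ratio of EBF1 to PAX5 within a library was -1.59 and -1.76 in the control-labelled libraries and -2.06 and -1.98 in the GNA13-deficient-labelled ones. The groups did not overlap, and the shift was 1.27-fold toward PAX5 (exact two-sided permutation p = 0.333, the smallest possible).

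SPI1, the ETS factor PU.1, lies at chr11:47376411-47400098 on the minus strand of hg19. It measured 10.57 and 10.78 (log2 normalized reads) in the control-labelled libraries and 10.04 and 10.18 in the GNA13-deficient-labelled ones. The groups were 0.39 apart, against 0.22 between the control replicates. The log2 difference was -0.56 (SE 0.10, 95% interval -0.82 to -0.31, adjusted p = 0.0147 by limma). PU.1 is also a myeloid regulator, and 2 of the 4 myeloid markers tested, ITGAM and LYZ (the latter also named after its values were seen), were lower as well. The part of the myeloid markers in the SPI1 and IRF8 values was not tested.

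SPIB, the ETS factor largely restricted to B cells and plasmacytoid dendritic cells, lies at chr19:50922195-50934571 on the plus strand of hg19. Its log2 values were 12.81 and 12.79 in the control-labelled libraries and 12.91 and 12.94 in the GNA13-deficient-labelled ones. The GNA13-deficient values were both higher, by a gap of only 0.11. GNA13-deficient minus control, the log2 difference was 0.13 (SE 0.05, 95% interval -0.01 to 0.26) and did not pass (adjusted p = 0.135 by limma). Median centring took it to 0.33 with an adjusted p of 0.0148, and quantile normalization to 0.02 with an adjusted p of 0.821.

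The balance of the 2 ETS factors differed between the labels. The log2 ratio of SPI1 to SPIB was -2.24 and -2.01 in the control-labelled libraries and -2.87 and -2.76 in the GNA13-deficient-labelled ones, a 1.61-fold shift toward SPIB with no overlap (exact two-sided permutation p = 0.333, the smallest possible).

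IRF8, an interferon regulatory factor that pairs with PU.1 in GC B cells, lies at chr16:85932722-85956212 on the plus strand of hg19 and was the least abundant of the 10 in the control-labelled libraries. It measured 8.81 and 8.92 (log2 normalized reads) there and 8.21 and 8.36 in the GNA13-deficient-labelled ones. The groups did not overlap and were 0.46 apart, with replicates within 0.15. This gave a log2 difference of -0.58 (SE 0.10, 95% interval -0.85 to -0.32, adjusted p = 0.0153 by limma), and counting error was 5.89% at the lowest of its values, 288 reads. For SPI1 and IRF8 the call was lost without the filter (adjusted p = 0.117 and 0.0748), without the variance trend (0.0731 and 0.0523) and after median centring (0.0691 and 0.0598).

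POU2AF1 lies at chr11:111222980-111326355 on the minus strand of hg19. This coactivator measured 13.71 and 13.76 (log2 normalized reads) in the control-labelled libraries and 13.19 and 13.16 in the GNA13-deficient-labelled ones. Replicates were within 0.05 of each other, and the groups were 0.52 apart. The log2 difference was -0.56 (SE 0.06, 95% interval -0.71 to -0.41, adjusted p = 0.00375 by limma).

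Centring each library on its median moved the median difference of all genes to 0.18 and the BCL6 difference to -2.28, and BCL6, BACH2, MEF2C and POU2AF1 still passed as lower. IKZF1 was then 1 of 3 factors called higher, with PAX5 and SPIB. With any 1 of the 4 libraries left out, 1 residual degree of freedom remained and no gene passed after adjustment by limma. The adjusted p of BCL6 was then 0.0786 without control replicate 1, 0.079 without control replicate 2, 0.0708 without GNA13-deficient replicate 1 and 0.0749 without GNA13-deficient replicate 2. At an unadjusted p under 0.05, between 6 and 8 of the 10 factors and between 5257 and 5600 of all genes passed in those 4 fits, and the BCL6 difference lay between -2.59 and -2.38 on the log2 scale.

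**Figure D2:**
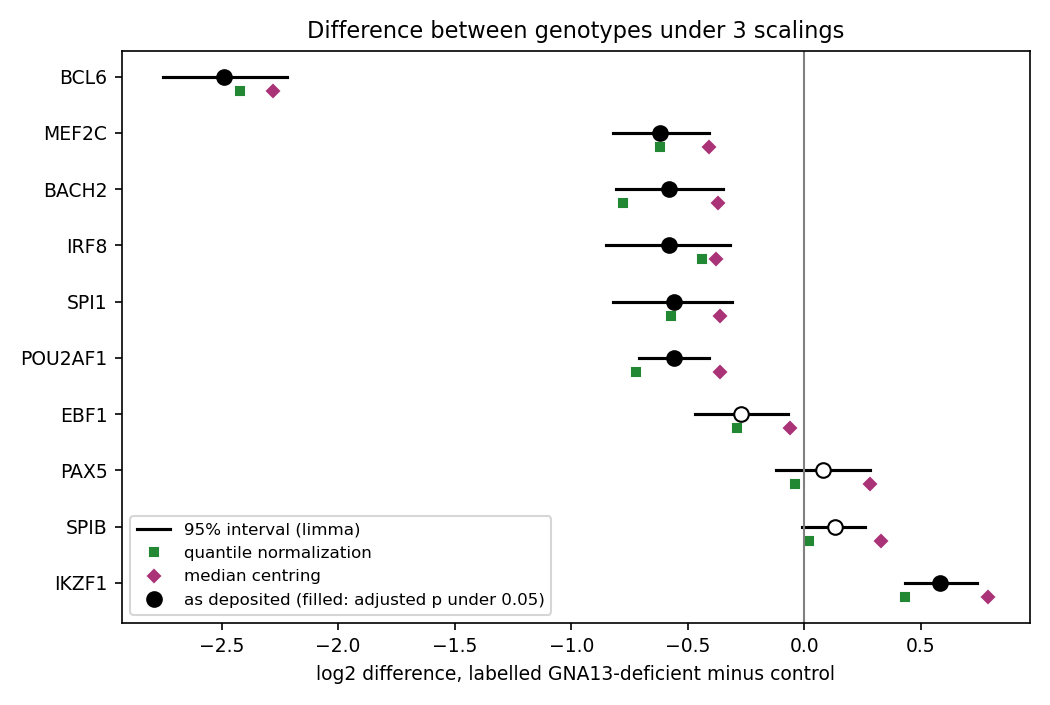
Log2 difference of each factor between the libraries labelled GNA13-deficient and control (horizontal axis), with the 95% limma interval for the values as deposited (circles, filled where the adjusted p was under 0.05) and the same difference after quantile normalization (green squares) and median centring (purple diamonds). BCL6 lies at -2.49 and apart from the other 5 called lower, which lie between -0.62 and -0.56.

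**Figure D3:**
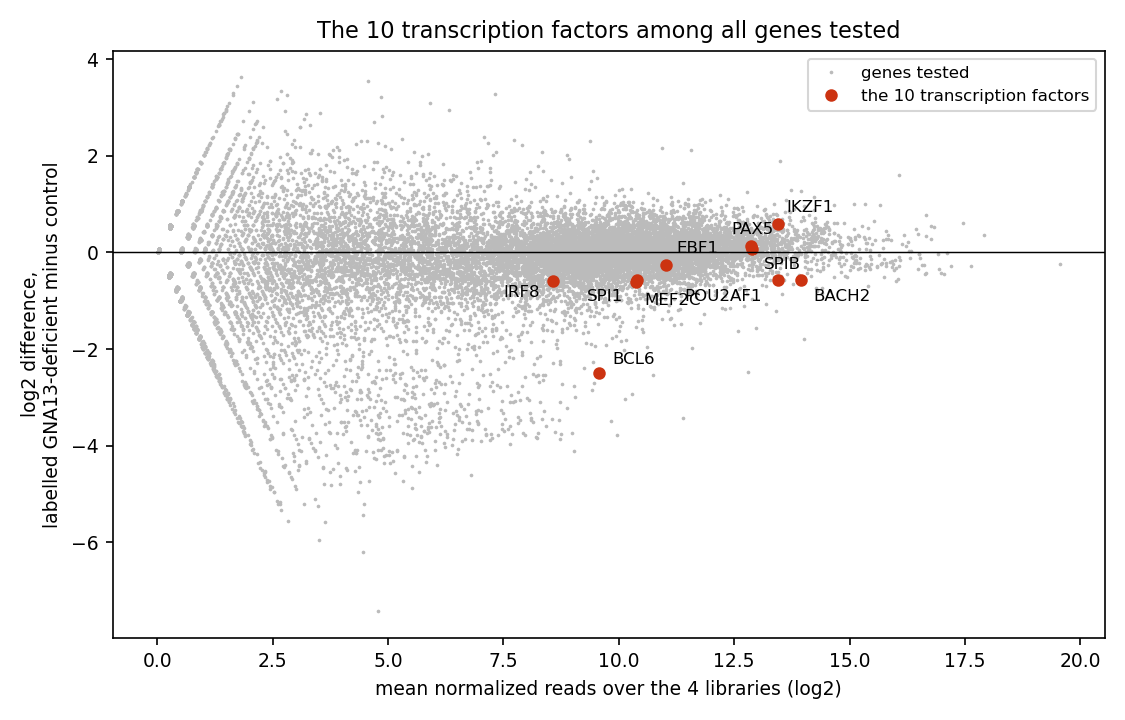
Difference between genotypes (vertical axis, log2) against the mean over the 4 libraries (horizontal axis, log2 normalized reads) for the 16945 genes tested (grey) and the 10 factors (red). BCL6 lies below most genes of its level, and the other 9 lie between -0.62 and 0.58.

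Levels of different genes were compared per length, as RPKM, the reads per kilobase of a reference transcript scaled to the mapped reads of the library. In the libraries labelled control the order ran from POU2AF1 at 156 to 157 RPKM through BACH2 (67.1 to 70.6), SPIB (60.2 to 63.6), IKZF1 (46.7 to 48.9), SPI1 (37.2 to 41.4), PAX5 (27.3 to 28.2), BCL6 (17.5 to 18.6), EBF1 (13.0 to 15.1) and MEF2C (6.79 to 8.03) to IRF8 at 5.67 to 5.85. No neighbours in that order overlapped. In the libraries labelled GNA13-deficient POU2AF1 stayed first at 99.3 to 105 RPKM, but IKZF1 (66.2 to 72.5) stood above SPIB (64.7 to 65.8) and BACH2 (41.4 to 47.9). PAX5 (26.2 to 30.6) and SPI1 (24.8 to 26.4) overlapped there, and were followed by EBF1 (10.6 to 11.8), MEF2C (4.60 to 4.69) and IRF8 (3.58 to 3.85). BCL6 moved from the seventh place to the last, at 2.94 to 3.29 RPKM. The whole order depends on the reference transcripts chosen, which the spread between replicates does not measure. For the last place these were of 3306 bases for BCL6 and 2668 bases for IRF8. By reads alone, IRF8 stayed below BCL6 in the libraries labelled GNA13-deficient (288 and 305 against 293 and 323). Annotated transcripts on the opposite strand share between 59 and 396 exonic bases with BACH2, BCL6, IKZF1, MEF2C and PAX5, and another protein-coding annotation shares 839 exonic bases with SPIB on its own strand. How the counting treated such reads is not given in the sources used here.

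The genes with which these factors work were taken from 6 lists of cofactors and targets written from general knowledge. Among 17 corepressors of BCL6, 1 was higher and 2 were lower (17.6% called, beside 29.7% of all genes), with a median difference of -0.03 beside -0.02 for all genes. GPS2, a subunit of the NCoR/SMRT complex, rose by 0.44 (log2, adjusted p = 0.00489 by limma), and the histone deacetylases HDAC5 and HDAC9 fell by 0.50 (adjusted p = 0.00604) and 0.43 (adjusted p = 0.00561). The numbers of called corepressors depended on scaling, with 2 higher and 6 lower after quantile normalization and 6 higher after median centring.

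Of 32 family members and DNA-binding partners tested, 14 were lower and 3 were higher (53.1% called), and their median was -0.27. The 3 with the largest called differences were ID2, ELF1 and ETS1. ID2, an inhibitor of E proteins, was at 10.66 and 10.72 (log2 normalized reads) in the control-labelled libraries and at 8.76 and 8.78 in the GNA13-deficient-labelled ones, a difference of -1.93 (SE 0.06, adjusted p = 0.00068 by limma). ELF1 and ETS1, ETS factors like SPI1 and SPIB, fell by 0.85 and 0.79 on the log2 scale. After median centring, 9 of the partners were called lower.

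Of 26 targets that BCL6 or BACH2 is known to repress, 8 were lower, 2 were higher and 16 did not pass, with a median of -0.19. The share called in either direction was 38.5%, beside 29.7% of all genes tested. The 2 that were higher, GPR183 (0.52 on the log2 scale) and CDKN1B (0.31), were named after their values were seen. Their adjusted p by limma was 0.00867 and 0.0496, the latter only just under the threshold. CD86, a costimulatory ligand, was at 8.61 and 8.51 (log2 normalized reads) in the control-labelled libraries and 4.50 and 4.81 in the GNA13-deficient-labelled ones, a difference of -3.91 that rests on 22 and 26 reads in the latter. BCL2, an inhibitor of apoptosis, fell by 2.53 on the log2 scale, and ID2, also on this list, has its values above. PRDM1, the plasma cell regulator Blimp-1, was at 8.02 and 8.12 (log2 normalized reads) in the control-labelled libraries and 6.15 and 6.30 in the GNA13-deficient-labelled ones, a difference of -1.85 (SE 0.15, adjusted p = 0.00224 by limma). IRF4, which acts with Blimp-1 in plasma cells, fell by 0.32 (adjusted p = 0.0309 by limma), and XBP1, which expands the secretory apparatus, differed by -0.26 and did not pass (adjusted p = 0.0646 by limma). After median centring, 5 of the 26 were lower and 5 were higher.

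Of 16 genes that PAX5 or EBF1 activates, 8 were lower and 2 were higher (62.5% called), with a median of -0.25. The complement receptor gene CR2 had 34 and 36 reads in the control-labelled libraries and 7 and 14 reads in the GNA13-deficient-labelled ones, a log2 difference of -1.75. BANK1, an adaptor in antigen receptor signaling, fell by 1.13, and VPREB3, a surrogate light chain relative, rose by 1.15 on the log2 scale. Members of this list passed in both directions, and 4 were lower after median centring. Of 16 genes that SPI1, SPIB, IRF8 or POU2AF1 activates, 6 were higher and 2 were lower (50% called), with a median of 0.20. The tetraspanin gene CD37 fell by 0.87, and BLVRB, a biliverdin reductase, and TLR9, a receptor for unmethylated CpG DNA, rose by 0.78 and 0.77 on the log2 scale.

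Of 15 genes that PAX5 represses, 4 were lower and 2 were higher (40.0% called), with a median of -0.02. CD33, a myeloid sialic acid-binding receptor, had 182 and 197 reads in the control-labelled libraries and 3 and 2 reads in the GNA13-deficient-labelled ones, a ratio of 72.2 after scaling (exact 95% interval 30.7 to 224 for counting error only). For the integrin gene ITGAM, with the reads given above, this ratio was 36.7 (17.6 to 92.2). LCP2, an adaptor in T-cell and myeloid signaling, was at 6.63 and 7.24 (log2 normalized reads) against 3.62 and 3.28. PAX5 itself did not pass the test, and sums of T-cell and myeloid markers were also lower in the libraries labelled GNA13-deficient, although ITGAM is itself on the myeloid list and held most of its control reads. The part of those markers in these values was not tested.

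**Figure D4:**
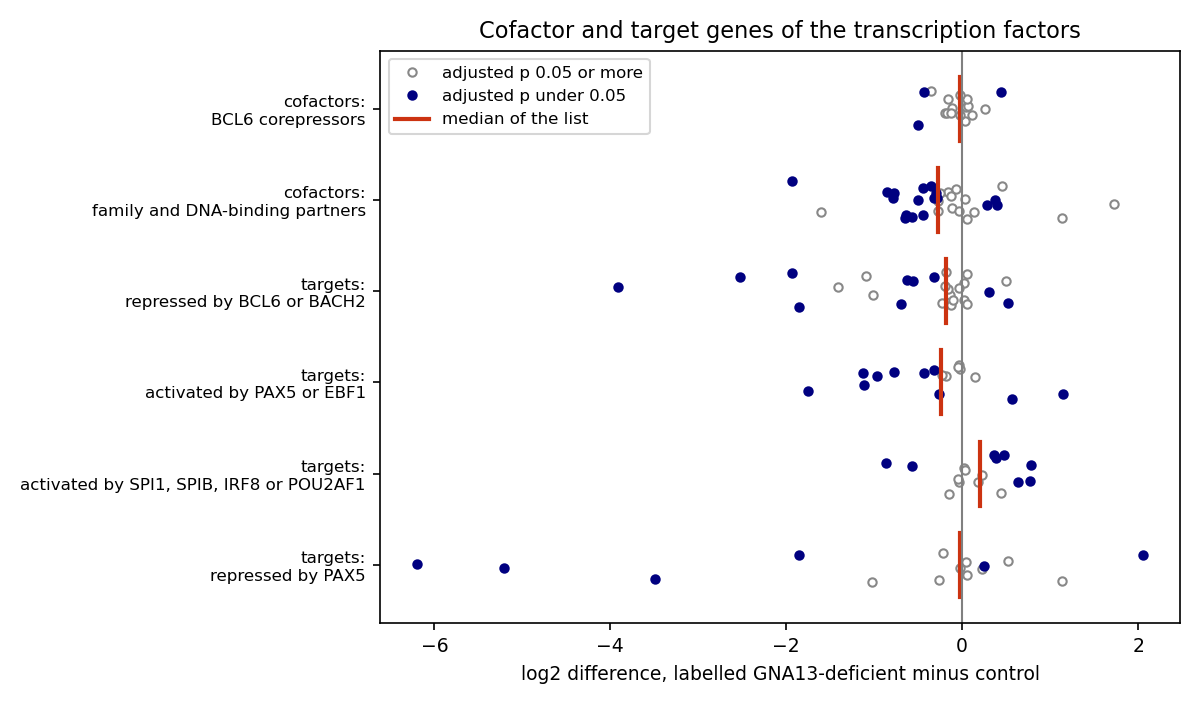
Log2 difference between the libraries labelled GNA13-deficient and control (horizontal axis) for each tested gene of the 6 lists of cofactors and targets, with filled blue points for an adjusted p under 0.05, open points for the others and a red bar at the median of each list. The lists' medians lie between -0.27 and 0.20, and the largest differences are falls in targets that PAX5, BCL6 or BACH2 represses.

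Several promoters of the factors hold letters that other factors of the group are known to recognise. RefSeq windows were matched for 8 of the 10 genes, and SPI1 and POU2AF1 had no entry. The octamer ATGCAAAT, to which POU2AF1 is recruited, was present on either strand in 1.77% of all windows and in 1 window of the factors, at the sixth MEF2C start. The ETS-IRF composite element, on which SPI1 or SPIB can pair with an IRF and which reads GGAAGTGAAA at EBF1, was present in 2.82% of all windows and in 1 window of the factors. Stretches around both are given as descriptions of sequence, and a link to the differences in level was not tested. EBF1 itself did not pass the test between genotypes. Capitals mark the match, which lies 60 bases before the start in MEF2C (chr5:88824372-88824429, minus strand, GRCh38.p14; opposite strand) and 33 bases before it in EBF1 (chr5:159097957-159098014, minus strand, GRCh38.p14).
MEF2C octamer: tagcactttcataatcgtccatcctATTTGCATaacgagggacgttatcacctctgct
EBF1 composite element: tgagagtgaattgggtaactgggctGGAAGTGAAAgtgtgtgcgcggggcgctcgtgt
More common letters were shared more widely. GAGGAA, an ETS core of the kind PU.1 prefers, was in 27.9% of all windows and in 7 of the factors' 18 windows (IKZF1, MEF2C and PAX5). CCCNNGGG, within the EBF1 palindrome, was in 19.1% of all windows and in 2 of the 18 (IKZF1 and SPIB). CAGGTG, an E-box of E proteins, was in 20.6% of all windows and in 3 of the 18 (IRF8 and MEF2C). The IRF8 windows overlap and hold the same CAGGTG. The MEF2 site (2.73% of all windows), the FOXO core GTAAACA (3.42%) and the paired IRF element (3.57%) were found in no window of the 8 genes. GAGGAA can overlap the start of the composite element, and the other motifs were counted separately without regard to overlap.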

How the data were processed

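The 10 genes, the cofactor, target and marker lists and the tests were chosen with earlier results of these data known. Per the study's methods and the submitters' processing notes, the authors made stranded poly(A) libraries, aligned reads to hg19 with STAR, named HTSeq, normalized the reads and deposited them on the log2 scale. The method of normalization, the annotation and the strand setting are not given in the sources used here. The deposited log2 values were compared with limma 3.58.1 in R 4.3.3 (lmFit, eBayes with a variance trend, genotype as the only term) on the 16945 genes above 0 in at least 2 of 4 libraries, with Benjamini-Hochberg adjustment at 0.05 and no pseudocount. The deposited values step in whole reads (100% of those below 400 normalized reads, within 0.02 reads plus rounding), and reads recovered from these steps were used for depth, RPKM and limma's voom. A log2 value of 1.56 to 1.69 corresponds to 3 reads. RPKM used the canonical transcript of GENCODE lifted to hg19. Named were the 10 factors, GNA13, PRDM1, IRF4, XBP1 and the 3 called genes of each list with the largest difference. List genes were matched by symbol or Entrez number, 174 of 174. Promoters were from RefSeq (GRCh38.p14), a build other than that of the values. Alternatives were to drop the filter or set it at the median level, pseudocounts of 1 and 10, quantile normalization, median centring, the replicate block, no variance trend, a robust prior, voom weights and leaving out each library. Scaling to the deposited totals was chosen after seeing the data.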

Additional observations from a re-analysis of the deposited data

How the results depend on the processing

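Pseudocounts of 1 and 10, a robust prior and scaling to the deposited totals changed no call among the 10 factors. Without a filter on low values 2 factors were called lower and 1999 genes in all, and without a variance trend 3 factors and 2718 genes. After median centring 3 factors were called higher, and 69.1% of 6235 calls over all genes were higher, against 44.0% of 5037 as deposited. The PAX5 difference changed sign after quantile normalization (-0.04) and without GNA13-deficient replicate 1 (-0.01, in a range up to 0.17 over the left-out libraries). With any 1 library left out, 0 factors were called lower, 0 higher and 0 genes in all, a lone library being assumed to vary like the other group. In the lists, quantile normalization gave 2 higher and 6 lower corepressors. Median centring gave 6 higher corepressors, 9 lower partners, 5 higher and 5 lower targets repressed by BCL6 or BACH2, and 4 lower targets activated by PAX5 or EBF1. The cause of these changes was not tested. Both labels use the same replicate numbers, and no source used here says whether a shared number marks a shared culture or batch. Deviations of same-numbered libraries correlated at 0.453 over 8473 genes. With the replicate block, 6616 genes were called, EBF1 was called lower (-0.27), and 4 corepressors were called lower. The block ended no call among the 10 factors. With 2 libraries a group the intervals are wide for differences of the size of EBF1 or SPIB.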
